A study of Mus musculus with 12 samples.

Results

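The IL-6 family cytokines and receptors measured here are 7 genes of the CT26 mouse colon carcinoma cell line: the ligands IL6, LIF and IL11, the ligand-binding chains IL6RA, LIFR and OSMR, and the shared signalling chain IL6ST (gp130). They were taken by symbol, spelled in upper case as in the expression table, from 23636 symbols. Cells received no agent, CX3CL1 at a dose of 2 µg/ml, IFN-γ at a dose of 100 ng/ml, or CX3CL1+IFN-γ at these doses, with 8 hours for each agent, and each of the 4 groups held 3 libraries, 12 in all. The groups are named here by the labels, which give IFN-γ alone; the study's text on this experiment also speaks of TNF-α and of CX3CL1 given afterwards, and whether the IFN-γ groups received TNF-α is not settled by the sources used here. The sources used here give no further allele, vector or clone for the cells. The labels call the libraries biological replicates without saying whether they came from separate cultures, so p-values measure only the spread between these libraries. The values are TPM, transcript levels corrected for gene length and scaled to 1000000 per library, so that levels can be set beside each other between genes.

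Some cytokines of this family, IL-6 among them, first bind a receptor chain of their own. Most ligands of the family engage gp130, many of them with gp130 alone in a pair or together with LIFR or OSMR. JAK kinases bound to these chains phosphorylate STAT3, which switches on its target genes, among them SOCS3, an inhibitor of the same receptor. In tumor tissue IL-6 and LIF are made by cancer cells, fibroblasts and myeloid cells and are known for their part in inflammation and in restraint of T cell responses.

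In CT26 cells the differences between treatments lay in IL6, LIF and OSMR. IL6 was the lowest of the 3 ligands in untreated cells, at 0.283 TPM ± 0.109 (SD, n = 3), and reached 22.7 ± 8.23 with CX3CL1+IFN-γ. LIF went from 7.43 ± 0.925 to 39.2 ± 13.3 TPM between the same groups, and OSMR from 0.230 ± 0.0665 to 2.89 ± 1.14. IL11, IL6RA and IL6ST were each measured in every library with smaller differences, and LIFR was close to 0 throughout.

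The stretches upstream of IL6 and LIF are shown because these were the 2 members called after each treatment given alone. They are RefSeq sequence of GRCm38.p6, on the plus strand, ending at the first base before the transcribed gene. IL6 lies at chr5:30013114-30019981 and LIF at chr11:4257557-4272514 of GRCm38 (GENCODE vM21), and the stretches are chr5:30012864-30013113 and chr11:4257318-4257556. Capitals mark matches to 2 of 5 letter strings searched on both strands, NF-kB (GGNNTTTCC) and AP-1 (TGANTCA).
IL6: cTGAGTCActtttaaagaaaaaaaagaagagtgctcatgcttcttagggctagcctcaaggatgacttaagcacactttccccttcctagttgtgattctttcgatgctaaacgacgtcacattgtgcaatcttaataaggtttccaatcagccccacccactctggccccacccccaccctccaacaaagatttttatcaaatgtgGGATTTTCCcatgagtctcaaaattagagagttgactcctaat
LIF: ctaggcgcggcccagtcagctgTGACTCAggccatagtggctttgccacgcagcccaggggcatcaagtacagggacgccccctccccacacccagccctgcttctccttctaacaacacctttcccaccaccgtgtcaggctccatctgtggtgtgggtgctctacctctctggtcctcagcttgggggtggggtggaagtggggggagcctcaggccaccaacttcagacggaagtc
The NF-kB string stood at bases -43 to -35 from the RefSeq start of IL6 and the AP-1 string at -249 to -243. LIF held the AP-1 string at -228 to -222 from its RefSeq start, which follows chr11:4257567. The LIF stretch shown ends earlier, at chr11:4257556, so these positions do not count from its last base. Of 32851 mouse promoter windows of 250 bases, 4.93% held the NF-kB string and 6.75% the AP-1 string. The other strings searched, CRE (TGACGTCA, in 1.55% of windows), GAS (TTCNNNGAA, 7.02%) and ISRE (GAAANNGAA, 7.13%), were not in the window of any member. IL11 held the AP-1 string at -98 to -92 from its second RefSeq start, and the windows of OSMR, IL6RA, IL6ST and LIFR held none of the 5. A match describes letters only, and no match says nothing about the factor.

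Each comparison was tested on log2(TPM + 1) with limma over 11878 genes, those that averaged 0.2 TPM or more, and a gene was called at a Benjamini-Hochberg adjusted p under 0.05. All adjusted p-values below come from this fit. Of the 7 members, 6 passed the filter on low values, and LIFR did not. Within groups the Pearson correlation of log2(TPM + 1) between libraries ran from 0.994 to 0.998. The library furthest from its group was CX3CL1 replicate 2: the median absolute log2 difference was 0.280 and 0.278 to its replicates, which differed from each other by 0.141. With 3 libraries a group, the smallest p of a two-sided exact permutation test would be 0.1, and the calls below depend on limma's use of the spread across genes.

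Genes listed as checks of the treatments were read first, and 8 of these 11 were tested. IFN-γ raised 6 of the 8 over untreated cells, where 7.85% of all genes were called. These were IRF1, GBP2, CXCL9, TAP1, CXCL1 and NFKBIA, with log2 fold changes from 1.43 (CXCL9) to 5.44 (GBP2), all interferon or NF-kB response genes. CXCL9 averaged 0.00646 TPM untreated and 0.0257 with CX3CL1, against 1.82 with IFN-γ and 2.25 with CX3CL1+IFN-γ. It passed the filter on low values only through the groups with IFN-γ, so its place among the genes called was partly set by the filter. IFNGR1 and IFNGR2 were not called with IFN-γ. CIITA, also listed as a check, was at most 0.0259 TPM in any library and was not tested. CX3CL1 raised GBP2, CXCL1 and NFKBIA, with log2 fold changes of 2.82, 6.17 and 2.25. The transcript of CX3CR1, the receptor of CX3CL1, was at most 0.154 TPM in any library, and the CX3CL1 transcript itself at most 0.0178 TPM.

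IL6 encodes the ligand after which the family is named. In untreated CT26 cells it measured 0.238, 0.203 and 0.407 TPM in replicates 1 to 3, and with CX3CL1 2.68, 1.67 and 2.03 TPM. IFN-γ gave 4.39, 4.50 and 4.27 TPM, and CX3CL1+IFN-γ gave 24.9, 13.6 and 29.6 TPM. The 4 groups did not overlap: every library with CX3CL1 lay above every untreated library, every IFN-γ library above these, and every library with both agents above all others. Replicate 2 was the lowest library in every group except IFN-γ alone.

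LIF encodes leukemia inhibitory factor, a ligand of the LIFR and gp130 pair. It measured 8.48, 6.75 and 7.06 TPM in untreated cells, 25.6, 15.4 and 21.4 with CX3CL1, 17.3, 13.8 and 21.7 with IFN-γ, and 46.6, 23.9 and 47.0 with CX3CL1+IFN-γ. Each treated library exceeded each untreated one. The groups that received CX3CL1 or IFN-γ alone overlapped, and the lowest library with both agents, replicate 2, fell below the highest with CX3CL1.

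IL11 encodes another gp130 ligand, and its gene lies at chr7:4772373-4782859 on the minus strand. Untreated cells gave 6.997, 4.92 and 4.06 TPM and CX3CL1-treated cells 6.22, 4.09 and 4.87 TPM, which overlapped. IFN-γ gave 8.98, 7.03 and 7.06 TPM, and CX3CL1+IFN-γ gave 7.77, 7.95 and 8.15 TPM. The lowest IFN-γ library stood just above the highest untreated one.

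**Figure D1:**
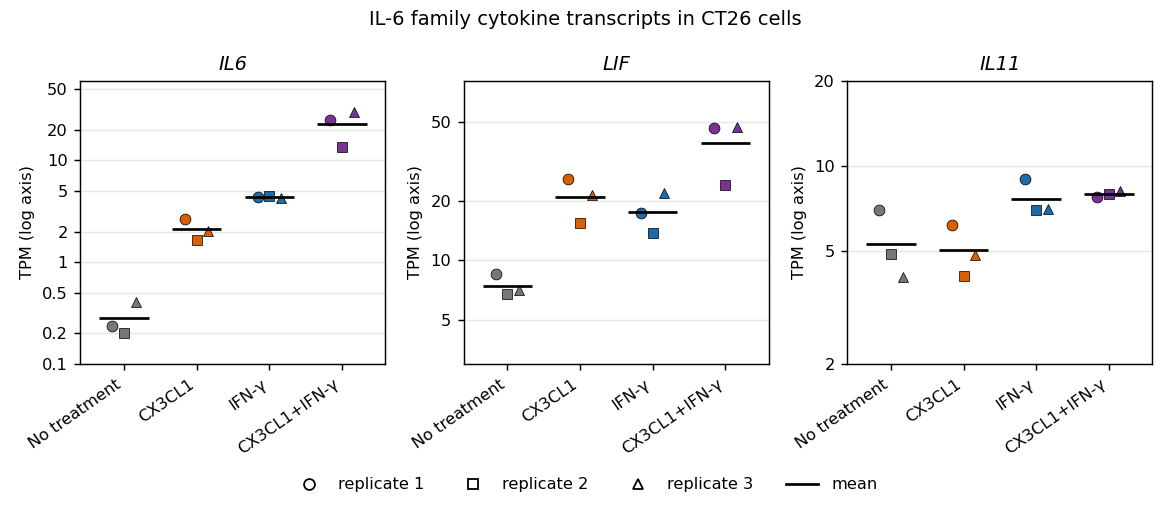
TPM of IL6, LIF and IL11 in each of the 12 libraries on a log axis, by treatment; symbols mark the replicate number and bars the mean of 3 libraries. The IL6 means step from 0.283 to 2.13, 4.39 and 22.7 TPM, while those of IL11 stay between 5.06 and 7.96 TPM.

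The receptor chains divided into abundant, low and near-absent transcripts. IL6ST (chr13:112464070-112510086), the chain shared by most of the family, was the highest member in every library, with 86.6, 55.6 and 61.1 TPM in untreated cells and 85.0, 65.4 and 59.1 with CX3CL1. It gave 93.7, 63.7 and 70.3 TPM with IFN-γ and 104.7, 70.0 and 71.8 with CX3CL1+IFN-γ. Replicate 1 was the highest in each group and the groups overlapped.

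IL6RA (chr3:89864059-89913196, minus strand), the chain that binds IL-6, measured 12.9, 11.9 and 12.2 TPM in untreated cells, 12.4, 14.5 and 11.7 with CX3CL1, 11.96, 10.5 and 10.2 with IFN-γ, and 12.5, 12.6 and 11.9 with CX3CL1+IFN-γ. All 4 groups fell within 10.2 to 14.5 TPM and overlapped. The gene overlaps an antisense transcript, Gm42809. The libraries were strand-specific, but the strand setting of the counting is not given in the sources used here, so reads from these 2 cannot be told apart with certainty.

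OSMR (chr15:6813577-6874969, minus strand), the oncostatin M receptor chain, was low in untreated cells at 0.301, 0.220 and 0.169 TPM, and measured 0.543, 0.506 and 0.304 TPM with CX3CL1. IFN-γ gave 1.66, 0.651 and 1.20 TPM and CX3CL1+IFN-γ gave 4.16, 1.96 and 2.56 TPM. The groups followed the order of IL6 without overlap, but the lowest CX3CL1 library and the highest untreated library were almost level.

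LIFR (chr15:7090614-7197489), the chain that pairs with gp130 for LIF, was listed at 0 in 10 of 12 libraries, at 0.00383 TPM in untreated replicate 3 and at 0.00373 in IFN-γ replicate 2. A listed 0 can be a failed estimate, since RPL26, a gene of the ribosome picked here for its zeros, was also at 0 in all 12 libraries.

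**Figure D2:**
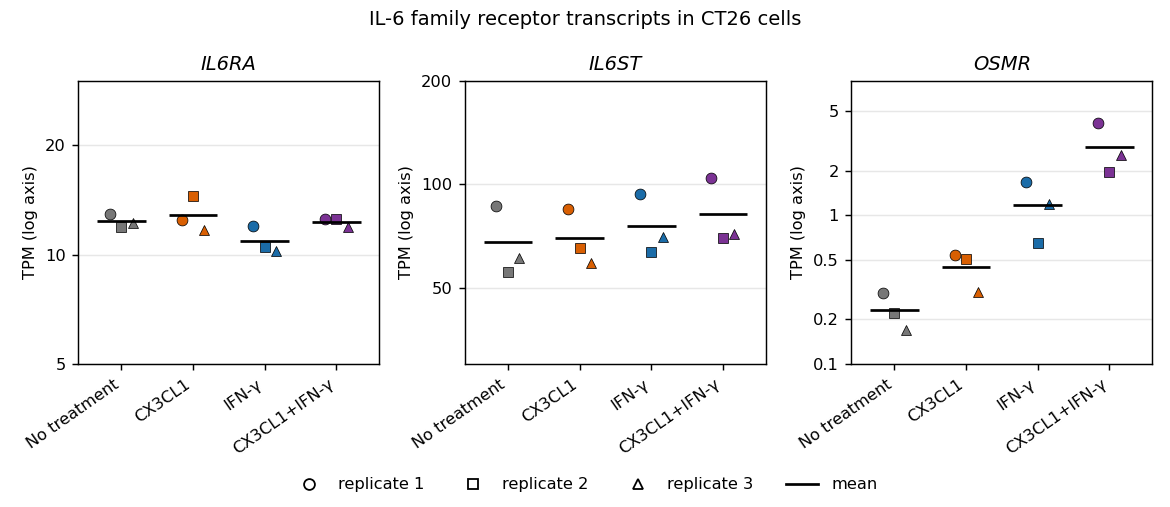
TPM of IL6RA, IL6ST and OSMR in each of the 12 libraries on a log axis, by treatment; symbols mark the replicate number and bars the mean of 3 libraries. OSMR means run from 0.230 to 2.89 TPM, IL6RA means stay between 10.9 and 12.9 TPM, and LIFR, at or near 0, is not drawn.

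To ask what CX3CL1 alone did to the family, CX3CL1-treated cells were compared with untreated cells. IL6 and LIF, 2 of the 6 members tested, rose and none fell, where 1.95% of all genes tested were called. The mean IL6 level was 7.52-fold that of untreated cells, and its log2 fold change was 1.28 ± 0.22 (SE, adjusted p = 0.00680). With a pseudocount of 0.1 TPM in place of 1, this log2 fold change was 2.55, since IL6 was under 1 TPM without treatment. The mean of LIF was 2.80-fold higher (log2 fold change 1.35 ± 0.25, adjusted p = 0.0123). IL6 was among the genes that the study itself displayed from these libraries, so its direction here is not independent evidence.

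The IL6 call held in all 14 alternatives. The LIF call held in 9 of 14, with log2 fold changes from 1.19 to 1.54 and adjusted p from 0.000602 to 0.0678: it was lost with no filter on low values and without untreated replicate 2 or 3 or CX3CL1 replicate 1 or 3. OSMR did not pass the test (log2 fold change 0.24 ± 0.20, adjusted p = 1.00), although its 3 CX3CL1 libraries lay above all untreated ones, as did those of IL6 and LIF. For these 3 of 6 members the groups did not overlap, with the treated one higher, as for 5.5% of all genes tested. For IL11, IL6RA and IL6ST the log2 fold changes were -0.05, 0.05 and 0.05, and the widest 95% interval, that of IL6ST, ran from -0.40 to 0.51.

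IFN-γ alone moved more of the family. IL6, LIF and OSMR, 3 of 6 members, rose over untreated cells and none fell, against 7.85% of all genes called. The mean IL6 level was 15.5-fold higher with a log2 fold change of 2.07 ± 0.22 (adjusted p = 5.2e-05), which became 3.59 with a pseudocount of 0.1. LIF was 2.37-fold higher (1.12 ± 0.25, adjusted p = 0.0157). OSMR was 5.09-fold higher by its means, with a log2 fold change of 0.79 ± 0.20 (adjusted p = 0.0287) that became 1.88 with a pseudocount of 0.1.

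IL6 was called in all 14 alternatives. LIF was called in 11 of 14 (log2 fold change 0.97 to 1.28, adjusted p up to 0.0826) and lost without untreated replicate 2 or 3 or IFN-γ replicate 3. OSMR was called in 8 of 14 (0.63 to 1.88, adjusted p up to 0.122) and lost with no filter on low values, without any untreated library, and without IFN-γ replicate 1 or 3.

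IL11 did not pass in this comparison (log2 fold change 0.48 ± 0.17, adjusted p = 0.124). It passed with the replicate number as a block (adjusted p = 0.0296) and without untreated replicate 1 (log2 fold change 0.66). Over its 14 alternatives its adjusted p ran from 0.0296 to 0.394. Counting IL11 with IL6, LIF and OSMR, the groups did not overlap for 4 of 6 members, all higher with IFN-γ, as for 20.6% of all genes. IL6RA had a log2 fold change of -0.17, with a 95% interval of -0.40 to 0.06, and IL6ST of 0.17, from -0.29 to 0.62.

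To ask what CX3CL1 added in the presence of IFN-γ, cells with CX3CL1+IFN-γ were compared with IFN-γ alone. IL6 was the only 1 of the 6 members called, against 0.362% of all genes. Its mean rose 5.17-fold (log2 fold change 2.07 ± 0.22, adjusted p = 0.000754), and it was called in all 14 alternatives. The means of LIF and OSMR were 2.23-fold and 2.47-fold those with IFN-γ alone, and each library with both agents exceeded each IFN-γ library for these genes as for IL6. Such 3 of 6 members compare with 8.54% of all genes whose groups did not overlap in this direction.

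LIF and OSMR did not pass the test here, with log2 fold changes of 1.07 ± 0.25 (adjusted p = 0.179) and 0.83 ± 0.20 (adjusted p = 0.185). Both passed with the replicate number as a block, at adjusted p = 0.00938 for LIF and 0.0303 for OSMR, which made 3 members called and 95 genes in place of 43. LIF also passed without CX3CL1+IFN-γ replicate 2, with a log2 fold change of 1.39 and an adjusted p of 0.0131. Its adjusted p over the 14 alternatives ran from 0.00938 to 0.800, and that of OSMR from 0.0303 to 0.814. IL11, IL6RA and IL6ST had log2 fold changes of 0.05, 0.17 and 0.11.

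What IFN-γ added to CX3CL1 was asked with CX3CL1+IFN-γ against CX3CL1. The IL6 mean was 10.7-fold higher with CX3CL1+IFN-γ than with CX3CL1 (log2 fold change 2.87 ± 0.22, adjusted p = 3.7e-05), and OSMR was 6.42-fold higher (1.39 ± 0.20, adjusted p = 0.00159). These 2 of 6 members were called in all 14 alternatives, and 4.7% of all genes were called. With a pseudocount of 0.1 the log2 fold change of OSMR was 2.40.

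LIF and IL11 stood just outside the threshold, with log2 fold changes of 0.85 ± 0.25 and 0.58 ± 0.17 and an adjusted p of 0.0841 each. With the replicate number as a block both passed (adjusted p = 0.00617 and 0.0160), which made 4 members called and 1369 genes in place of 558. LIF also passed without CX3CL1+IFN-γ replicate 2 (log2 fold change 1.16, adjusted p = 0.00876). Over the 14 alternatives the adjusted p of LIF ran up to 0.283 and that of IL11 up to 0.219. The groups did not overlap for IL6, OSMR and IL11, 3 of 6 members, all higher with both agents, as for 14.0% of all genes. IL6RA had a log2 fold change of -0.05 and IL6ST of 0.22, with a 95% interval of -0.23 to 0.68.

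**Figure D3:**
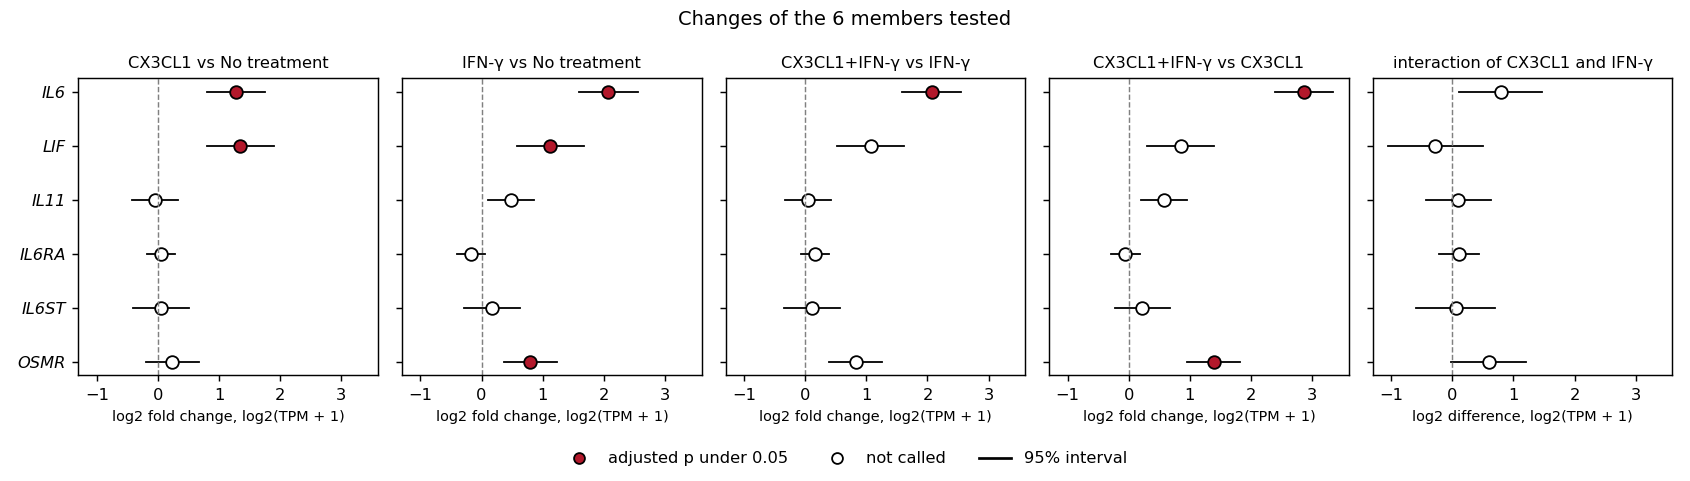
Log2 fold change on the log2(TPM + 1) scale, with its 95% interval, of the 6 members tested in each comparison, and the interaction; filled points have an adjusted p under 0.05. IL6 is called in all 4 comparisons between groups, from 1.28 to 2.87, and no member in the interaction.

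Whether the log2 effect of CX3CL1 differed in the presence of IFN-γ was read from the interaction, the effect with IFN-γ less that without it. It does not ask whether both agents gave more than each alone, which the comparisons above address. No member was called, and 0% of genes were, with 0 of 11878 by limma at an adjusted p under 0.05 and 273 at an unadjusted p under 0.05. For IL6 the interaction was 0.79 ± 0.31 on the log2(TPM + 1) scale (unadjusted p = 0.0252, adjusted p = 1.00), and it turned to -0.28 with a pseudocount of 0.1. For OSMR it was 0.59 ± 0.28 and for LIF -0.28 ± 0.36, each with an adjusted p of 1.00. All 12 libraries enter this term.

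The order of the combined level depended on the scale. On the TPM scale mean IL6 was 22.4 higher with CX3CL1+IFN-γ than untreated, above the sum of its differences with each agent, 5.95, whereas its ratio to untreated cells, 80.2, lay below the product of the separate ratios, 117. LIF showed the same order, with a difference of 31.7 against a sum of 23.5 TPM and a ratio of 5.27 against a product of 6.62. For OSMR the combined value was the higher on both scales, 2.66 against 1.16 TPM and 12.6 against 9.98. These are group means with no test, and the untreated group enters every one of them.

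Over the 6 members tested, the median log2 fold change was 0.14 with CX3CL1, 0.64 with IFN-γ, 0.50 for CX3CL1+IFN-γ against IFN-γ and 0.71 against CX3CL1. Over all genes tested these medians were -0.02, 0.03, -0.003 and 0.04. These comparisons share groups, so they are not separate evidence.

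The rest of the family was mostly silent in CT26 cells. Of 13 other ligands and receptor chains, 8 stayed under 0.2 TPM in all 12 libraries. OSM, the ligand of OSMR, was listed at 0 in 11 of 12 libraries and at 0.0238 TPM in the other. CNTFR and IL31RA were at 0 in all 12. IL11RA1, the chain that binds IL-11, was present at 1.52 to 3.32 TPM and was not called in any comparison.

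CLCF1, a ligand that signals through gp130 and LIFR, was the single gene of these lists that was called. This was with IFN-γ, where 7.85% of all genes tested were called. CLCF1 measured 6.20 ± 0.648 TPM in untreated cells, 8.003 ± 1.93 with CX3CL1, 9.55 ± 0.790 with IFN-γ and 11.1 ± 1.29 with CX3CL1+IFN-γ. Its log2 fold change with IFN-γ was 0.55 ± 0.15 (adjusted p = 0.0431), called in 5 of 14 alternatives (log2 fold change 0.41 to 0.62) and lost with each library left out, with no filter on low values and with median-ratio or quantile scaling. With the replicate block it also passed for CX3CL1+IFN-γ against CX3CL1 (adjusted p = 0.0110).

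Among 9 gp130 signal transducers 8 were tested. STAT3, the main transducer of the family, measured 18.3 ± 3.05 TPM in untreated cells, 22.9 ± 3.48 with CX3CL1, 32.8 ± 5.87 with IFN-γ and 39.3 ± 5.16 with CX3CL1+IFN-γ. It rose with IFN-γ (log2 fold change 0.80, adjusted p = 0.00887) and for CX3CL1+IFN-γ against CX3CL1 (0.75, adjusted p = 0.0200). The second call held in 10 of 14 alternatives (0.65 to 0.87) and was lost without replicate 2 or 3 of CX3CL1 or replicate 1 or 3 of CX3CL1+IFN-γ. With the replicate block TYK2, a receptor-bound kinase, also passed with IFN-γ (0.40, adjusted p = 0.0227).

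Of 9 inhibitors of JAK-STAT signalling, 8 were tested and SOCS1 and SOCS3 were called, once each. Over all genes tested, 7.85% were called with IFN-γ, where SOCS1 was called. For CX3CL1+IFN-γ against CX3CL1, where SOCS3 was called, the share was 4.7%. A single call among 8 genes is too few to set the list apart from these shares. SOCS3, which blocks gp130 directly, measured 15.9 ± 0.984 TPM untreated, 19.7 ± 2.43 with CX3CL1, 23.4 ± 6.02 with IFN-γ and 44.3 ± 13.04 with CX3CL1+IFN-γ. It rose in CX3CL1+IFN-γ over CX3CL1, with a log2 fold change of 1.10 ± 0.20 (adjusted p = 0.00748), in all 14 alternatives. SOCS1 rose with IFN-γ (0.97, adjusted p = 0.0327) from 11.03 to 23.1 TPM, in 7 of 14 alternatives (0.72 to 1.10). It was lost with no filter on low values, under median-ratio or quantile scaling and without any untreated library or IFN-γ replicate 3. With the replicate block SOCS1 also passed for CX3CL1+IFN-γ against CX3CL1 (adjusted p = 0.00939).

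All 4 sheddases and cofactors, which release receptor and ligand ectodomains from the cell surface, were tested. Only RHBDF2 was called, with CX3CL1 and with IFN-γ, where 1.95% and 7.85% of all genes tested were called. RHBDF2, a cofactor of the sheddase ADAM17, rose from 5.83 ± 0.557 TPM to 9.90 ± 2.02 with CX3CL1 (log2 fold change 0.66, adjusted p = 0.0469) and to 9.08 ± 0.925 with IFN-γ (0.56, adjusted p = 0.0412). These calls held in 7 of 14 alternatives (0.56 to 0.82) and in 5 of 14 (0.43 to 0.63). With CX3CL1 the call was lost with no filter on low values, with only the libraries compared and when any library but CX3CL1 replicate 2 was left out, and with IFN-γ it was lost with no filter, with median-ratio or quantile scaling and when any library was left out.

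Of 20 genes listed as STAT3-responsive, 18 were tested. With CX3CL1, 3 rose, with IFN-γ 5, for CX3CL1+IFN-γ against IFN-γ 0 and against CX3CL1 3, and none fell. The shares called over all genes were 1.95%, 7.85%, 0.362% and 4.7% in the same order. SAA3, an acute-phase protein, went from 4.30 ± 2.87 TPM to 36.7 ± 22.0 with CX3CL1, 108.6 ± 57.9 with IFN-γ and 348.2 ± 251.8 with CX3CL1+IFN-γ. BCL3, an atypical IkB protein, measured 1.18 ± 0.359, 5.60 ± 0.866, 5.96 ± 2.45 and 18.7 ± 9.60 TPM in the same order. Replicate 1 was the highest library of SAA3 in every group.

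SAA3 and BCL3 both rose with CX3CL1 (log2 fold change 2.85 and 1.60), with IFN-γ (4.44 and 1.63) and for CX3CL1+IFN-γ against CX3CL1 (3.15 and 1.48). The CX3CL1 calls of both, at adjusted p = 0.0230 and 0.0153, held in 9 of 14 alternatives (2.29 to 3.29 and 1.47 to 2.19) and were lost with no filter on low values and without replicate 2 or 3 of untreated cells or replicate 1 or 3 of CX3CL1. The last BCL3 call, at adjusted p = 0.0167, was lost in 5 of 14 (1.11 to 1.79), with no filter and without replicate 2 or 3 of CX3CL1 or 1 or 3 of CX3CL1+IFN-γ.

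JUNB, CEBPB and MYC, which encode transcription factors, rose with IFN-γ, with log2 fold changes of 0.94, 0.75 and 0.45. The call of MYC, at adjusted p = 0.0483, held in 5 of 14 alternatives (0.37 to 0.55). It was lost with median-ratio or quantile scaling, with no filter on low values, with no intensity trend and without any library but untreated replicate 3.

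With the replicate number as a block the STAT3-responsive counts were larger. They were 9 in place of 5 with IFN-γ, 5 in place of 0 for CX3CL1+IFN-γ against IFN-γ and 10 in place of 3 against CX3CL1. Over all genes the block gave 1929 calls in place of 932, 95 in place of 43 and 1369 in place of 558. The 5 genes called in the second of these were CEBPD, BCL3, LCN2, ICAM1 and SAA3. Several genes of this list, such as ICAM1 and SAA3, are also known NF-kB targets. The 10 genes called against CX3CL1 with the block include HP. It averaged 0.0160 TPM untreated, 0.0778 with CX3CL1, 0.268 with IFN-γ and 0.903 with CX3CL1+IFN-γ. HP passed the filter on low values only through the groups with IFN-γ, so its call was partly set by the filter.

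Regulators of IL6 transcription and of IL6 mRNA were a list of 14 genes, of which 13 were tested. CX3CL1 raised NFKB1, NFKBIZ, CEBPD and ZC3H12A over untreated cells, and NFKB1, NFKBIZ and ZC3H12A over IFN-γ alone, and none of the list fell in any comparison. IFN-γ raised CEBPB and ARID5A, and CEBPB also rose for CX3CL1+IFN-γ against CX3CL1. Over all genes tested, 1.95% were called with CX3CL1 and 7.85% with IFN-γ. For CX3CL1+IFN-γ the shares were 0.362% against IFN-γ and 4.7% against CX3CL1.

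NFKBIZ encodes a nuclear IkB protein that acts at the IL6 promoter. It measured 6.35 ± 0.767 TPM untreated, 45.6 ± 3.37 with CX3CL1, 12.1 ± 4.66 with IFN-γ and 70.1 ± 21.1 with CX3CL1+IFN-γ. Its log2 fold change was 2.67 ± 0.24 with CX3CL1 (adjusted p = 0.000128) and 2.46 ± 0.24 for CX3CL1+IFN-γ against IFN-γ (adjusted p = 0.000331). The 3 libraries of each group that received CX3CL1 lay above all libraries without it.

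ZC3H12A encodes Regnase-1, an RNase that degrades IL6 mRNA. It rose from 3.61 ± 0.283 to 31.6 ± 9.07 TPM with CX3CL1 (log2 fold change 2.79, adjusted p = 0.000138) and from 7.88 ± 1.87 to 44.8 ± 16.9 TPM when CX3CL1 was added to IFN-γ (2.31, adjusted p = 0.00128). NFKB1, an NF-kB subunit, rose from 72.3 ± 6.10 to 138.3 ± 14.4 TPM with CX3CL1 and from 83.6 ± 0.866 to 148.8 ± 9.35 TPM in the presence of IFN-γ. All these calls of NFKBIZ, ZC3H12A and NFKB1 held in all 14 alternatives.

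CEBPD, a C/EBP factor that binds the IL6 promoter, rose from 5.53 ± 0.603 to 39.1 ± 8.89 TPM with CX3CL1 (log2 fold change 2.60, adjusted p = 0.00636). Its IFN-γ libraries were spread from 7.38 to 38.7 TPM. CEBPB, a related factor, went from 65.2 ± 3.40 TPM to 111.7 ± 21.3 with IFN-γ and from 82.9 ± 3.50 to 152.0 ± 30.4 TPM when IFN-γ was added to CX3CL1, with adjusted p = 0.00834 and 0.00608. ARID5A, which stabilises IL6 mRNA, rose with IFN-γ from 7.43 ± 2.71 to 12.9 ± 0.620 TPM (log2 fold change 0.77, adjusted p = 0.0349). It did so in 6 of 14 alternatives (0.55 to 1.01), and the call was lost with no filter on low values, with median-ratio or quantile scaling and without any library but untreated replicate 2.

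With the replicate block this list gave 7 calls in place of 2 with IFN-γ, CEBPD, NFKBIZ, ZC3H12A, ZFP36 and FOS being the genes added. It gave 4 in place of 3 for CX3CL1+IFN-γ against IFN-γ and 3 in place of 1 against CX3CL1. Calls over all genes rose too, in the same order to 1929 from 932, 95 from 43 and 1369 from 558. Of the STAT3-responsive genes, 3 are also in this list.

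**Figure D4:**
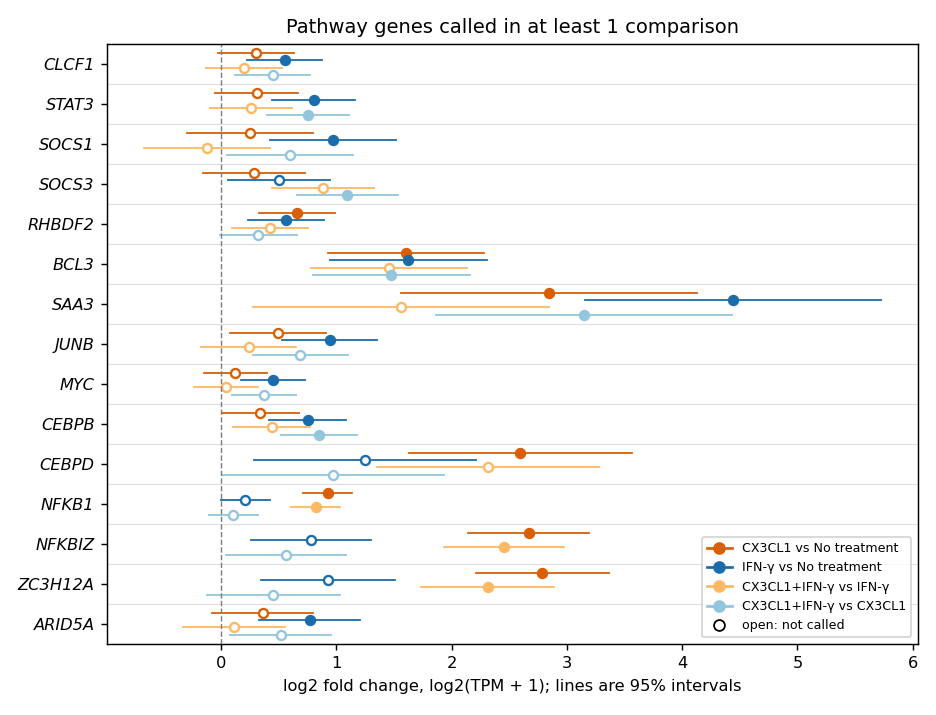
Log2 fold change on the log2(TPM + 1) scale, with its 95% interval, of pathway genes called in at least 1 comparison; filled points have an adjusted p under 0.05. NFKB1, NFKBIZ and ZC3H12A are called in both comparisons that add CX3CL1 and in neither that adds IFN-γ, and STAT3 and CEBPB in both that add IFN-γ and in neither that adds CX3CL1. This split rests on the threshold. With IFN-γ alone NFKBIZ and ZC3H12A stood just outside it, with log2 fold changes of 0.78 and 0.93 (adjusted p = 0.0705 and 0.0528). Both passed there with the replicate block (adjusted p = 0.0131 and 0.00483).

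The likeness of other genes to each member was measured by Pearson correlation of log2(TPM + 1) over the 12 libraries, which share 4 treatments, so that a value covers differences between groups as well as within them. The genes most like IL6 were GSAP (0.978), WHAMM (0.961) and U90926 (0.960). For LIF they were CCL2 (0.986), IKBKE (0.983) and FAS (0.983), and for OSMR CEBPB (0.971) and STOM (0.969). For IL11 they were CMTR1, TBCD and VSP35L, for IL6RA ACADSB, SMURF2 and SMAD2, and for IL6ST ERO1LB, RALGPS1 and SUMF1, from 0.914 to 0.972.

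CT26 cells are labelled as colon carcinoma, but 6 of 8 colon epithelial markers, EPCAM, KRT8, KRT19, CDH1, VIL1 and CDX2, stayed under 1 TPM in all 12 libraries, and EPCAM was at 0. The summed epithelial markers ran from 51.2 to 64.7 TPM in untreated cells and from 24.9 to 33.2 with CX3CL1+IFN-γ, and the 6 mesenchymal markers from 4935 to 6160 and from 2680 to 4026. Most of the mesenchymal sum was VIM, with means of 4174 TPM untreated and 2360 with CX3CL1+IFN-γ. The means of ZEB1 went the other way, 15.6 and 17.6 TPM, and those of the remaining mesenchymal markers were lower with both agents. Of 10 leukocyte markers 7 stayed under 1 TPM, with CD3E at 0, and the sum of the 10 ran from 35.1 to 47.1 TPM untreated and from 41.9 to 70.2 with both agents. Most of that sum was CD14 and CD68, with means of 26.9 and 11.7 TPM in untreated cells. All 5 endothelial markers were under 1 TPM. The part of these shifts in the results was not tested, and in such bulk RNA fewer cells of a kind and less RNA per cell cannot be told apart.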

How the data were processed

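RNA of CT26 cells was sequenced in 4 groups of 3 libraries, grouped by the sample labels; doses and time came from the paper's methods and legend. The authors aligned reads to mm10 with STAR 2.7.3a and deposited TPM, scaled to 1000000 per library. How counts became TPM and the annotation are not given in the sources used here. TPM keep no depth, so precision is the spread between libraries.

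Tests were computed in R 4.3.3 with limma 3.58.1 (lmFit, then eBayes with trend) on TPM in log2 after a pseudocount of 1 was added, all 12 libraries in 1 fit, for genes averaging 0.2 TPM or more. The 4 comparisons between groups and the interaction were tested, with Benjamini-Hochberg adjustment over the 11878 genes in each. The fit was tested on simulated data.

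The members and gene lists were chosen with earlier results of these data known. Genes named are the 7 members, list genes called in at least 1 comparison, treatment checks and the 3 genes most like each member.

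Libraries with the same replicate number deviated together for untreated and IFN-γ (correlations across genes 0.429, 0.460 and 0.220). The same held for IFN-γ and CX3CL1+IFN-γ (0.630, 0.635 and 0.649) and for CX3CL1 and CX3CL1+IFN-γ (0.351, 0.353 and 0.428). For untreated and CX3CL1 it held in replicates 1 and 3 (0.387 and 0.301) but hardly in replicate 2 (0.00472). The pairing rests on these correlations.

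As alternatives, the pseudocount was set to 0.1, the filter was removed or raised to 1 TPM, values were rescaled by median ratios or by quantiles, the fit was limited to the libraries compared, made without the trend or given the replicate block, and each library was left out in turn. Protein sequences were not used here, and some genes that the naming rule takes are not reported here. Python with pandas 2.3.3 and matplotlib 3.10.9 prepared tables and plots.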

Additional observations from a re-analysis of the deposited data

How the results depend on the processing

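Of 450 recomputed log2 fold changes of members, 410 kept their direction and their side of the threshold, 8 passed it anew, 14 lost it and 18 changed sign; the calls concerned are given with each result. With no filter on low TPM, 1 member was called for CX3CL1 against no treatment, and 28 genes for CX3CL1+IFN-γ against IFN-γ. With only the libraries compared, 20 genes were called in that comparison and 344 for CX3CL1+IFN-γ against CX3CL1. Quantile normalization gave 1 gene in the interaction. With the replicate block, the numbers of genes called were 455 in place of 232 for CX3CL1 against no treatment, 1929 in place of 932 (members 4) for IFN-γ, 95 in place of 43 (members 3) for CX3CL1+IFN-γ against IFN-γ, 1369 in place of 558 (members 4) against CX3CL1, and 52 in place of 0 in the interaction; the members it added were IL11 with IFN-γ, LIF and OSMR against IFN-γ, and LIF and IL11 against CX3CL1, and it ended no call of a member. For CX3CL1 against no treatment it called 5 STAT3-responsive genes in place of 3, adding JUNB and LCN2. For CX3CL1 against no treatment, which enters the interaction, the libraries of replicate 2 hardly deviated together (correlation 0.00472), so the block is less sure there.

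With 1 library left out, the counts of genes ran from 152 to 268 for CX3CL1 (members 1 to 2), 530 to 764 for IFN-γ (members 1 to 3), 16 to 54 for CX3CL1+IFN-γ against IFN-γ (members 1 to 2), 270 to 668 against CX3CL1 and 0 to 11 in the interaction. The log2 fold changes that changed sign were of members not called. With 1 library left out, these ran from -0.20 to 0.13 for IL11, -0.030 to 0.11 for IL6RA and -0.10 to 0.24 for IL6ST with CX3CL1. They ran from -0.0014 to 0.16 for IL11 and -0.077 to 0.27 for IL6ST in CX3CL1+IFN-γ against IFN-γ, and from -0.12 to 0.028 for IL6RA against CX3CL1. The interaction ran from -0.47 to 0.039 for LIF, -0.081 to 0.25 for IL11 and -0.13 to 0.22 for IL6ST, and that of IL6 turned to -0.28 with a pseudocount of 0.1. The cause of these changes was not tested. TPM hold no depth, so what depth limits is unknown.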
